A study of Mus musculus with 17 samples.

Results

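Immediate early transcription factors are encoded by genes that cells switch on within minutes of a stimulus, before any new protein has to be made. The genes Fos, Fosb, Fosl2, Jun, Junb, Jund, Egr1, Egr2, Ier2 and Nr4a1 were chosen by name from the count table of a mouse kidney cortex study, and all 10 of them were among its 48795 genes. Counts scaled to library size (CPM) of the 10 genes were compared across 17 cortex samples in 4 groups.

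The 5 WT samples came from wild type mice. The 5 GCERAd samples carry the label ATF4 KO: these mice hold floxed Atf4 alleles (Atf4 fl/fl) and a tamoxifen-dependent Cre (CreER) under the Ggt1 promoter, which is active in proximal tubules. At an age of 6 weeks GCERAd mice were given tamoxifen (20 mg/mL) on 2 days, and the tissue was taken about a month later after a fast of 16 h. The 3 TRACK samples came from a transgenic mouse model of kidney cancer, known to express a constitutively active HIF1A in proximal tubules, and the 4 GCERAdT samples carry the label TRACK-ATF4 KO. The methods describe this schedule for the mice with floxed Atf4. The fast took place in metabolic cages, and the study also reports metabolic cage measurements for WT mice. Whether the WT mice sequenced here were fasted is not stated. The age and treatment of the WT, TRACK and GCERAdT mice are not given in the sources used here. The cortex holds many cell types beside the proximal tubule, and fewer cells of a type and less RNA per cell cannot be told apart in these samples.

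Several facts of the series bear on every result. Totals on genes were between 53688512 and 71364561 counts per sample. WT samples were set apart by sex-linked genes: Xist was at 149 to 418 CPM in WT and at most 6.07 CPM elsewhere, and the Y-linked Ddx3y was at 0 CPM in all 5 WT samples and at 49.8 CPM or more in the other 12. The sex of the mice is not given in the sources used here, so any difference from WT and a difference of sex cannot be told apart, whereas the GCERAdT, TRACK and GCERAd samples were alike in these genes. The share of counts on processed pseudogenes divided the libraries into a kind A (0.032% to 0.038%, 8 libraries) and a kind B (0.0574% to 0.0784%, 9 libraries). Kind B held WT 2, GCERAd 3 to 5, all 3 TRACK samples and GCERAdT 3 and 4. Variable-region immunoglobulin genes were most alike in GCERAdT 2 and 3 (Spearman's rho of 0.798 across 169 genes), and WT 1 and 2 (0.623), WT 4 and 5 (0.63) and GCERAd 2 and 3 (0.595) also ranked high. The labels speak of 3 to 4 mice per cohort while WT and GCERAd hold 5 samples each, so some samples may be repeat libraries of 1 mouse. The sequencing summary of the study also lists some library names again with a letter added. It does not tie these names to groups or samples. Atf4 itself was at 84.5 ± 9.81 CPM in WT, 65.4 ± 9.3 in GCERAd, 83.6 ± 8.93 in TRACK and 92.4 ± 10 in GCERAdT (mean ± SD). Its level was therefore not lower in the libraries labelled GCERAdT than in TRACK (a difference of 0.17 on the log2 scale, with a standard error of 0.11 and an adjusted p of 0.367 by edgeR). A count per gene also takes in exons outside a deleted stretch, so the label GCERAdT could not be checked with it. The libraries of this group are called GCERAdT by their label alone, and every direction drawn from them rests on that label.

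Fos, Fosb and Fosl2 belong to the FOS family and pair with the JUN family (Jun, Junb and Jund) through a leucine zipper to form the dimeric factor AP-1. Egr1 and Egr2 encode zinc finger factors, Nr4a1 encodes an orphan nuclear receptor, and Ier2 encodes a small nuclear protein of the immediate early response. Mitogen-activated kinases act on these genes through serum response factor (SRF) and its partners at CArG boxes, and cAMP-dependent kinases act through CREB at cAMP response elements (CREs). Jund is known as a family member that is expressed in most resting cells, while Fos, Fosb and Egr2 are usually low without a stimulus. In kidney, the family is known to respond to ischemia, growth factors and tissue handling.

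The promoters of Jun and Egr2, which were among the genes with called differences, are shown with that of Fos, the founding member of the family. Fosl2, Jund and Ier2 also gave called differences and are not shown. Each line holds the 200 bases before a RefSeq transcription start (GRCm38.p6), 5′ to 3′ on the strand of the gene. Capitals mark a CArG box, the sequence TGACG of the CRE on either strand, or the sequence TGACATCA, a variant of the AP-1 site.
Fos, chr12:85473690-85473889, plus strand: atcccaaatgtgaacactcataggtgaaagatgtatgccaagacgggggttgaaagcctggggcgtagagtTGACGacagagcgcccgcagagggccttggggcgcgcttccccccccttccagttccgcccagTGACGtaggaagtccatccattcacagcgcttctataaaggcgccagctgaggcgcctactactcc
Jun, chr4:95052223-95052422, minus strand: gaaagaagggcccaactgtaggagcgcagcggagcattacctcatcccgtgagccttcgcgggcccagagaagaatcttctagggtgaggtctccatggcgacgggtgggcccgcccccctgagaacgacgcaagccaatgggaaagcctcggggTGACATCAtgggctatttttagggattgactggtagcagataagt
Egr2, chr10:67537669-67537868, plus strand: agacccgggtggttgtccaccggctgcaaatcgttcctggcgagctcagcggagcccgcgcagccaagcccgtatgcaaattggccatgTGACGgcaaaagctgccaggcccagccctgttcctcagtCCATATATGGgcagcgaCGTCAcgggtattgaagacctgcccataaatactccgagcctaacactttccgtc
The Jun promoter held TGACATCA, at 45 bases before the start, and neither of the other marked elements. The Fos promoter held TGACG at 129 and at 66 bases before the start. Egr2 has 5 RefSeq start sites, and the one shown is among the 3 whose windows hold both kinds of element, with a CArG box 72 bases before the start and TGACG at 111 and at 55 bases. The window of the most upstream Egr2 start held none of the marked elements, and that of the next start held a CArG box alone. Windows from 250 bases before to 50 after the start were given for 8 of the 10 genes, and a gene was counted if any of its windows held the element, which gives Egr2 more windows than the other members. TGACG lay in the windows of 5 of these 8 genes and in those of 23% of 27025 genes. The CArG box was in 1 of 8 (Egr2) against 1.81% of all genes, and TGACATCA in 1 of 8 (Jun) against 4.18%. None of the 8 held the full CRE (TGACGTCA, 2.03% of all genes), the AP-1 site TGANTCA (8.97%) or the ATF4 element TGATGNAA (4.51%). The windows of Fosl2 and Jund held none of the marked elements, and no window was given for Egr1 or Ier2. The Jund window belongs to a RefSeq start at chr8:70697739 and ends upstream of the counted gene, which begins at 70698949. Bases next to the beginning of the counted Jund gene were therefore not searched, and its lack of elements does not describe that promoter. Both strands were searched, TGACG also lies within the full CRE, and a match in letters is a description and not a binding site. Bases further from the start were not searched, so Fos or another gene without a match may hold an element outside its window.

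Levels per length were compared as FPKM, which is CPM divided by the length of the merged exons in kilobases. Jund stood highest in WT at 75.7 ± 12.3 FPKM (SD, n = 5). Jun (8.53 ± 1.74), Ier2 (7.6 ± 0.496) and Junb (6.98 ± 1.46) followed and lay within each other's spread. Egr1 was at 2.65 ± 1.03 FPKM, Fosl2 at 2.04 ± 0.324 and Nr4a1 at 1.52 ± 1.08. Fos (0.783 ± 0.215), Fosb (0.0319 ± 0.0162) and Egr2 (0.0164 ± 0.0136) were below 1 FPKM, and they stayed below it in every group. These 3 genes therefore did not pass the minimum for testing, a mean of 1 FPKM in a group of the comparison, and were taken from fits of all genes with a count. The other 7 genes passed in every comparison.

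**Figure D1:**
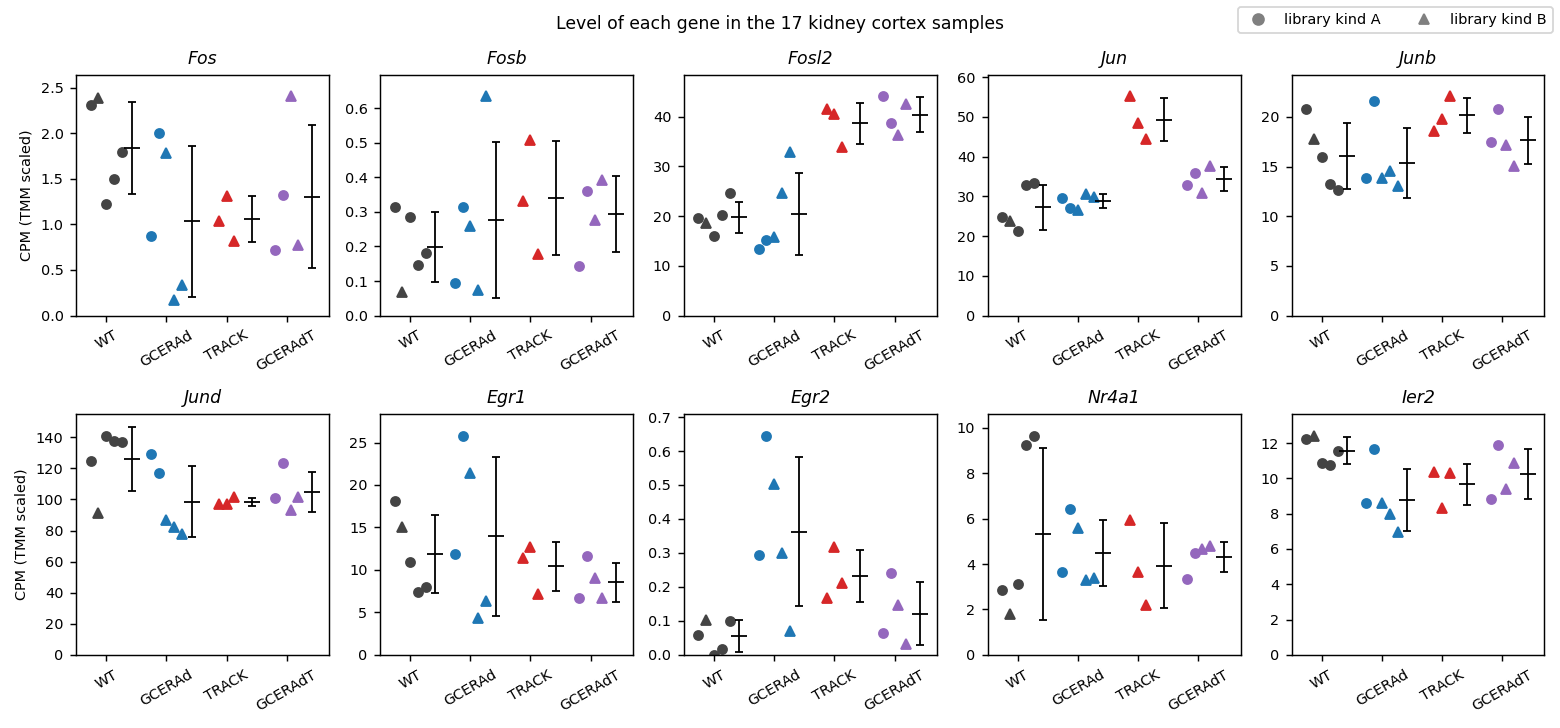
CPM of each of the 10 genes in every sample, by group, with circles for library kind A and triangles for kind B. The bar beside each group is the mean ± SD. All TRACK and GCERAdT samples lie above all WT samples for Fosl2, the 3 TRACK samples lie above all others for Jun, and kind B libraries lie low for Jund.

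TRACK was compared with WT to ask how the cortex of the tumor model differs from wild type cortex. Fosl2 and Jun were higher in TRACK, by 1.95-fold and 1.81-fold, and neither overlapped with WT. Jund was called lower. The other 7 genes did not pass the threshold of an adjusted p of 0.05. In this comparison 45.6% of the 11967 genes tested were called (23% higher and 22.6% lower), so the share called among the 10 genes (3) was no higher than that of all genes.

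Fosl2, encoding the AP-1 subunit FRA2, was at 41.4, 40.6 and 33.8 CPM in TRACK samples 1 to 3. In WT 1 to 5 it was at 19.6, 18.5, 16, 20.2 and 24.6 CPM. Every TRACK sample lay above every WT sample. This was a log2 fold change of 0.96 (95% interval 0.71 to 1.21, standard error 0.13) with an adjusted p of 0.00028 in edgeR. Leaving out each sample in turn moved it between 0.89 and 1.05, with a highest adjusted p of 0.00203. Among the kind B libraries alone, with 1 WT sample, it was 1.05 (adjusted p = 0.0192).

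Jun, the founding AP-1 partner of FOS proteins, was at 55.2, 48.4 and 44.4 CPM in TRACK. WT samples held 24.8, 23.8, 21.2, 32.7 and 33.5 CPM. The groups were again separate, with WT 4 and 5 the nearest to TRACK. The fitted change was 0.85 on the log2 scale (95% interval 0.56 to 1.15, standard error 0.15, adjusted p = 0.00147). With each sample left out it was between 0.77 and 0.94 (highest adjusted p 0.00863), and among the kind B libraries it was 1.04 (adjusted p = 0.0179).

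Jund, the broadly expressed JUN family member, was at 97, 97.1 and 102 CPM in TRACK and at 124, 91.2, 141, 138 and 137 CPM in WT. WT 2, the sole kind B library of its group, lay below all 3 TRACK samples, which are all of kind B, and the other 4 WT samples lay above them. On the log2 scale the change was -0.36 (standard error 0.13, adjusted p = 0.0439). The direction turned when library kind was a covariate (0.11, adjusted p = 0.453) and among kind B libraries (0.11, adjusted p = 0.493). Over all 17 samples Jund was at 101 to 141 CPM in kind A and at 78 to 102 CPM in kind B. The call was also lost on leaving out any sample but WT 2, with the replicate number as a block (-0.25, adjusted p = 0.196) and with all 17 samples in 1 fit (-0.36, adjusted p = 0.098).

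**Figure D2:**
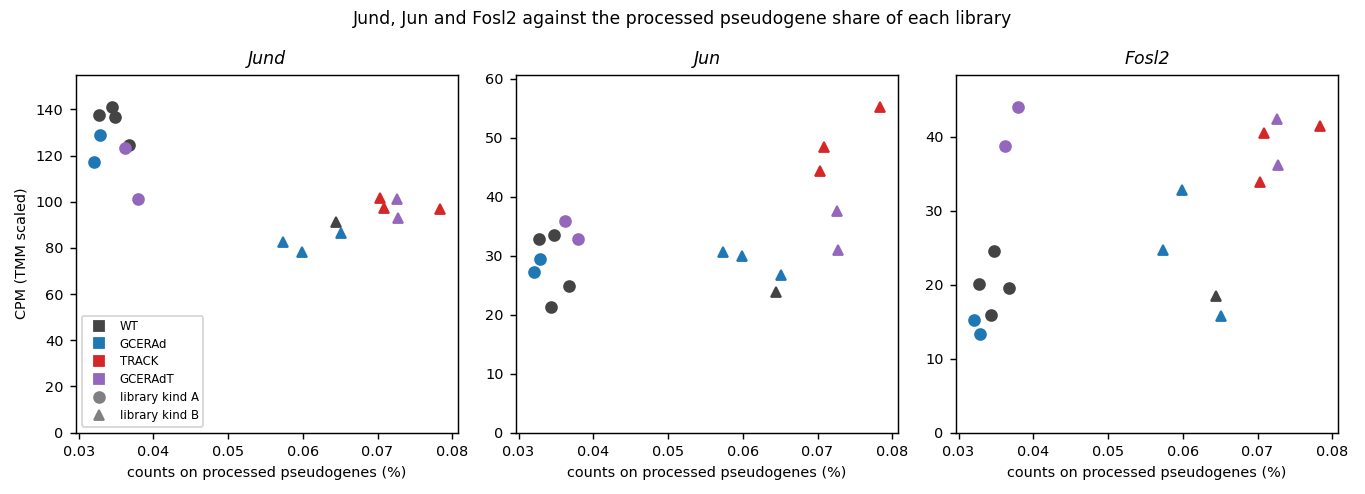
CPM of Jund, Jun and Fosl2 (y axes, from 0) against the percent of counts on processed pseudogenes (x axis), 1 point per sample, coloured by group. Jund falls with the step from kind A (circles) to kind B (triangles) in WT and GCERAd. Fosl2 in GCERAdT is at 36.2 to 44 CPM over both kinds. In GCERAd, Fosl2 is at 13.4 to 15.2 CPM in kind A and at 15.7 to 32.8 CPM in kind B.

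Of the remaining genes, Ier2 was at 10.4, 8.32 and 10.3 CPM in TRACK and at 10.8 to 12.4 CPM in WT. Egr2 was at 0.166, 0.316 and 0.212 CPM in TRACK and at 0 to 0.102 CPM in WT. Their groups did not overlap, but neither passed the threshold (log2 fold change -0.26, adjusted p = 0.0758, for Ier2 and 1.99, adjusted p = 0.178, for Egr2). With Fosl2 and Jun, 4 of 10 genes did not overlap between the groups, against 44.3% of all genes tested. Egr2 rested on 9 to 18 counts per TRACK sample and on 0 to 6 counts per WT sample. In WT 3 no count was found, where 3 counts would give 0.0538 CPM. Junb was at 20.2 ± 1.75 CPM in TRACK and 16.1 ± 3.36 in WT (log2 fold change 0.32, 95% interval 0.02 to 0.63, adjusted p = 0.114). Fos was at 1.06 ± 0.252 and 1.84 ± 0.505 CPM (-0.82, interval -1.49 to -0.14, adjusted p = 0.106). The intervals use a normal quantile and are too narrow for so few samples. Those of Junb and Fos leave out 0, but neither gene passed the threshold. The intervals of Fosb, Egr1 and Nr4a1 held 0, with log2 fold changes of 0.75, -0.20 and -0.45. Fosb, at 4 to 29 counts per sample, had an interval of -0.61 to 2.11, so a change of 2-fold was not detectable at this depth.

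The rest of the pathway was described from lists of genes that were chosen with earlier results of these data known. Of 18 tested genes among other immediate early transcription factors, 11 were called higher in TRACK and 1 lower, with a median log2 fold change of 0.70 against -0.01 over all genes. The largest changes were in Maff, a small MAF protein (2.54), Myc (1.92), Atf3, a stress-induced repressor (1.76), and Cebpb (1.37), with adjusted p between 3.22e-05 and 0.00357. Of 26 feedback and effector genes of the response, 13 were called higher and none lower (median 0.52). The largest of these were in Ccn2, a matricellular protein (1.41), Dusp4, a phosphatase of mitogen-activated kinases (1.36), the small GTPase gene Rhob (1.33) and the kinase gene Sgk1 (1.14), with adjusted p between 1.76e-06 and 0.000322. Of 25 upstream kinases and factors, 4 were called higher and 7 lower (median 0.003). Mrtfb, a coactivator of SRF, was called higher (0.77), while Crem (-0.45), Srf (-0.40) and Mrtfa (-0.37) were called lower, with adjusted p between 0.000104 and 0.0379. Among 12 other bZIP factors 5 were called higher and 1 lower, led by the ATF4 target Atf5 (1.60, adjusted p = 1.33e-05) and Ddit3 (0.77, adjusted p = 0.00104).

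Markers of other cell types moved in the same comparison. All 6 endothelial markers were called higher in TRACK, with sums of 728 to 864 CPM against 444 to 506 in WT. Among fibroblast and smooth muscle markers 6 of 7 were called higher, with sums of 277 to 484 CPM against 117 to 151. Adipocyte markers summed to 79 CPM in TRACK 1, the TRACK sample highest in Fosl2 and Jun, and to 2.98 and 4.28 in the other TRACK samples. Proximal tubule markers summed to 7233 to 8496 CPM against 9224 to 11290, with 4 of 8 called lower and 1 higher. No marker of these 4 lists was at 0 in a whole group of this comparison. Among the other lists, 6 of 7 collecting duct markers, 4 of 6 markers of thick ascending limb and distal convoluted tubule and 1 of 4 podocyte markers were called lower. Tubule injury markers were called higher for 4 of 6, while their sum ran the other way in TRACK 1 and 2 (713 and 782 CPM), below all WT samples (1395 to 1628), and was at 1586 in TRACK 3. Immune markers overlapped in their sums (257 to 262 against 214 to 308 CPM). Skeletal muscle markers summed to 3.45 to 10.7 CPM in WT and to at most 0.462 CPM in TRACK. Heat shock and handling genes overlapped in their sums (1892 to 1960 against 1527 to 2224 CPM), with 2 of 12 called higher and 3 lower. The part of these cell types, of injury and of handling in the changes of Fosl2 and Jun was not tested.

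GCERAd was compared with WT to ask what follows the deletion of Atf4 in proximal tubules of mice without the tumor transgene. Ier2 was called lower, by 1.33-fold, and Egr2 higher, and the other 8 genes did not pass the threshold. The values of GCERAd and WT overlapped for all 10 genes, whereas 20% of the 11581 genes tested did not overlap. Of those genes 27.6% were called (14.1% higher and 13.5% lower), and 11.7% of the 26432 genes with a count were called in the fit that gave Egr2.

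Ier2 was at 8.61, 11.6, 8.6, 7.99 and 6.94 CPM in GCERAd 1 to 5 and at 12.2, 12.4, 10.9, 10.8 and 11.6 CPM in WT. GCERAd 2 lay among the WT samples and the other 4 lay below all of them. It fell by 0.41 on the log2 scale (95% interval -0.67 to -0.15, standard error 0.13, adjusted p = 0.0388). It was lost on leaving out any sample except GCERAd 2 (adjusted p up to 0.0904) and with a covariate for library kind (-0.35, adjusted p = 0.0708). Among kind A libraries alone the value was -0.16, and among kind B libraries alone it was -0.68, neither past the threshold.

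Egr2, which in nerve is known as a regulator of myelination, was at 0.295, 0.645, 0.503, 0.3 and 0.0705 CPM in GCERAd, from 19, 39, 29, 16 and 4 counts. The WT samples held 4, 6, 0, 1 and 6 counts. GCERAd 5 lay within WT and the other 4 samples above it. A log2 fold change of 2.62 was fitted (standard error 0.82, adjusted p = 0.0496), a value that depends on the handling of the zero in WT 3. It was lost on leaving out 8 of the 10 samples in turn, with adjusted p up to 0.131, and on summing WT 1 with 2 and GCERAd 2 with 3 (adjusted p = 0.118), with the replicate number as a block (adjusted p = 0.145) and in kind B alone (1.49, adjusted p = 0.795).

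Fosl2 and Jun, the genes called higher in TRACK, gave log2 fold changes of 0.03 (95% interval -0.42 to 0.47) and 0.07 (-0.18 to 0.31) for GCERAd against WT. Fosl2 was uneven within GCERAd, at 13.4, 15.2, 15.7, 24.6 and 32.8 CPM, so samples 4 and 5 stood above the other 3. Egr1 ran the other way, at 11.9, 25.8, 21.4, 4.33 and 6.36 CPM in the same order. Fos likewise was at 0.87, 2, 1.79, 0.169 and 0.335 CPM, with samples 4 and 5 lowest. Samples 2 and 3, which may come from 1 mouse, were highest for Egr1, Egr2 and Fos. Samples 4 and 5 also had the lowest collecting duct marker sums of the group (527 and 497 CPM against 701 to 749), and whether tissue composition has a part in the spread of these genes was not tested. Jund was at 129 and 117 CPM in the kind A samples 1 and 2 and at 86.5, 82.4 and 78 in the kind B samples 3 to 5. Its log2 fold change of -0.36 (adjusted p = 0.124) became -0.14 with library kind as a covariate. Jund was called lower in 2 of the 10 fits with a sample left out (lowest adjusted p 0.04, edgeR).

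Nr4a1 was spread widely within WT, at 2.85, 1.82, 3.14, 9.23 and 9.65 CPM, whereas the GCERAd samples lay between 3.3 and 6.43. Junb was at 13 to 14.5 CPM in 4 GCERAd samples and at 21.6 in GCERAd 2. Neither gene was called, with log2 fold changes of -0.26 and -0.07, nor were Fos (-0.85, adjusted p = 0.302), Fosb (0.44, adjusted p = 0.714) or Egr1 (0.23, adjusted p = 0.737).

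In the wider pathway 3 of 17 other immediate early transcription factors were called lower in GCERAd and none higher. They were Cebpd (-1.97), the circadian repressor gene Nfil3 (-1.59) and Ier5 (-0.62), with adjusted p between 0.000238 and 0.00165. Of 24 feedback and effector genes 6 were called higher and 1 lower. Ccn2 (0.99), Errfi1, an inhibitor of the EGF receptor (0.92), Dusp4 (0.84) and the growth factor gene Hbegf (0.53) led these, with adjusted p between 0.00123 and 0.00919. Of 25 upstream genes 4 were called higher and 5 lower, the latter led by Mrtfa (-0.47) and Srf (-0.40). Markers of fibroblasts and smooth muscle were higher here too, 6 of 7 of them being called, and 5 of 7 collecting duct markers and 4 of 6 markers of thick ascending limb and distal convoluted tubule were called lower. Proximal tubule markers summed to 11860 to 14410 CPM in GCERAd, above all WT samples (9224 to 11290), with 2 of 8 called higher. Tubule injury markers summed to 556 to 929 CPM, below all WT samples (1395 to 1628), although 2 of the 5 tested were called higher and 2 lower. Of 6 endothelial markers 1 was called higher and of 4 podocyte markers 1 lower, and no immune or adipocyte marker was called. Adipocyte markers still summed to 28.4 and 27 CPM in GCERAd 2 and 3, the samples highest in Egr2. They summed to 0.218 to 0.844 CPM in GCERAd 1, 4 and 5 and to 0.363 to 7.4 CPM in WT. Heat shock and handling genes summed to 2265 to 3034 CPM in GCERAd and to 1527 to 2224 in WT, with 2 of 12 called higher and 2 lower. The part of these cells, of injury and of handling in the changes of Ier2 and Egr2 was not tested. Of 12 other bZIP factors 4 were called lower, Jdp2 (-0.72), Atf5 (-0.63), Nfe2l1 (-0.61) and Atf4 (-0.38).

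**Figure D3:**
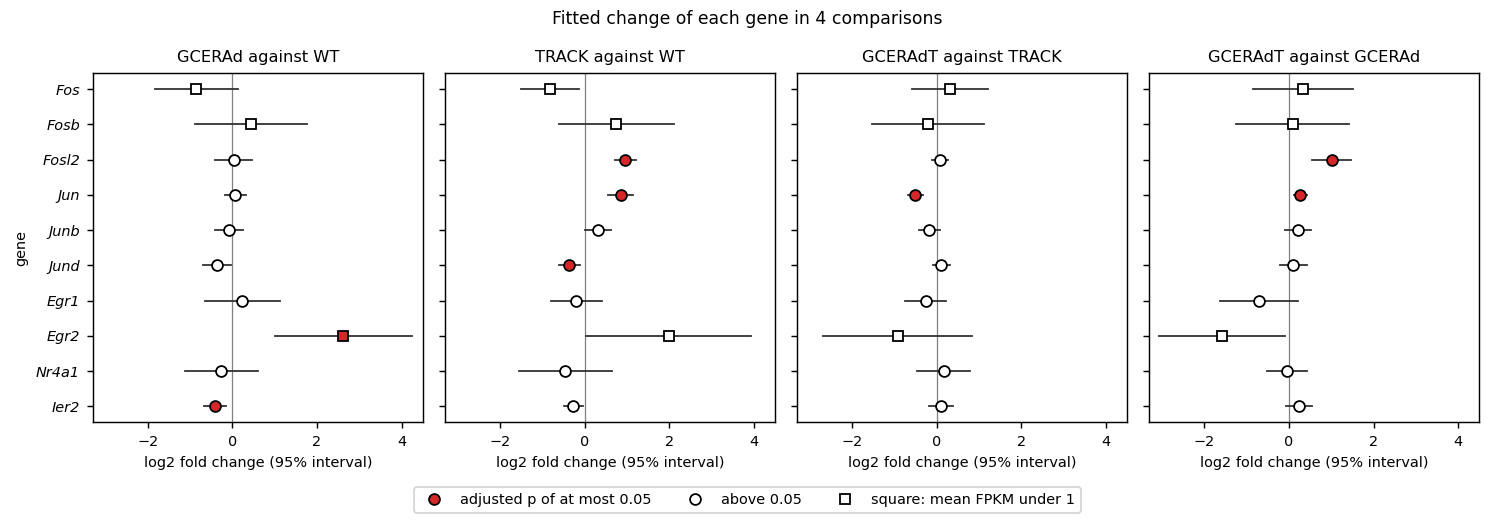
Fitted log2 fold changes (x axis) of the 10 genes in 4 comparisons, with 95% intervals as lines, filled points for an adjusted p of at most 0.05 and squares for genes below the minimum of 1 FPKM. Fosl2 is at 0.96 in TRACK against WT and 1.01 in GCERAdT against GCERAd, and Jun is at 0.85 and -0.50 in TRACK against WT and GCERAdT against TRACK, which share the TRACK samples.

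The libraries labelled GCERAdT were compared with TRACK to ask what the Atf4 deletion changes in the tumor model. Jun was lower by 1.42-fold and did not overlap with TRACK, and it was the sole gene of the 10 to be called. In all, 7.09% of 11928 genes were called (2.81% higher and 4.28% lower) and 22.9% did not overlap, so 1 of 10 genes called and 1 of 10 not overlapping lie near or below the rates of all genes. All samples of this comparison held Y-linked transcripts.

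Jun was at 32.8, 35.8, 30.9 and 37.6 CPM in GCERAdT 1 to 4, against 55.2, 48.4 and 44.4 in TRACK. All 4 samples lay below all 3 TRACK samples, in kind A (samples 1 and 2) as in kind B (samples 3 and 4). Jun fell by 0.50 on the log2 scale (95% interval -0.69 to -0.32, standard error 0.09, adjusted p = 0.0142). Without TRACK 1 it was -0.42 and no longer called (adjusted p = 0.0599), and among kind B libraries it was -0.51 (adjusted p = 0.097). TRACK 1 is also the sample with the adipocyte marker transcripts.

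Fosl2 was not called. It was at 44, 38.7, 36.2 and 42.5 CPM in GCERAdT, within and just above the range of TRACK, and its log2 fold change was 0.09 (95% interval -0.10 to 0.28, adjusted p = 0.613). The interval leaves room for a rise of 0.28 and for a fall of 0.10 on the log2 scale. Junb was at 17.6 ± 2.37 CPM and Jund at 105 ± 13, with log2 fold changes of -0.17 and 0.11 that did not pass the threshold. Egr1 (-0.26), Ier2 (0.10) and Nr4a1 (0.16) did not pass it either. Fos was at 0.72, 1.32, 2.4 and 0.769 CPM, with GCERAdT 3 above all TRACK samples and GCERAdT 2 above them by less than the rounding (TRACK 2 was also at 1.32 CPM), and Egr2 and Fosb were at 2 to 14 and 11 to 25 counts per sample.

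Other immediate early transcription factors were called lower for 4 of 18 genes and higher for 1. The lower genes included the clock gene Per1 (-1.19), Csrnp1 (-0.92) and Klf4 (-0.49), and the higher gene was Nfil3 (0.98), with adjusted p between 0.00189 and 0.036. Of 26 feedback and effector genes 7 were called lower and 1 higher, with a median of -0.30 against 0.01 over all genes. Among them, the kinase genes Plk3 (-1.22), Sgk1 (-1.15) and Sik1 (-0.84) and Gadd45b, a stress response gene (-0.71), had adjusted p between 0.00132 and 0.0356. Of 25 upstream genes 1, Mapk14, the p38 kinase, was called (-0.32, adjusted p = 0.0497). Fibroblast and smooth muscle markers were lower for 4 of 7 genes, with sums of 176 to 210 CPM in GCERAdT against 277 to 484 in TRACK, and all 3 adipocyte markers tested were lower. Endothelial markers were called lower for 1 of 6, with sums of 560 to 648 CPM against 728 to 864. Tubule injury markers were called lower for 3 of 6 and higher for 1, with sums of 724 to 795 CPM in GCERAdT against 713, 782 and 1586 in TRACK 1 to 3. Of heat shock and handling genes 2 of 12 were called lower, with overlapping sums, as was 1 of 8 proximal tubule markers, and 1 of 6 markers of thick ascending limb and distal convoluted tubule was called higher. The part of these cell types, of injury and of handling in the lower level of Jun was not tested.

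GCERAdT and GCERAd share the Atf4 label and differ in the tumor transgene. Fosl2 and Jun were both higher in GCERAdT and did not overlap with GCERAd, and no other gene of the 10 was called. Over all 11816 genes tested 19.2% were called (9.39% higher and 9.79% lower) and 19.5% did not overlap, against 2 of 10 here in both counts.

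Fosl2 was at 36.2 to 44 CPM in GCERAdT and at 13.4 to 32.8 CPM in GCERAd. Its lowest GCERAdT sample lay above GCERAd 5, the highest sample of the other group. The change was 1.01 on the log2 scale (95% interval 0.55 to 1.47, standard error 0.24, adjusted p = 0.0137). It stayed past the threshold on leaving out each sample in turn (0.89 to 1.26, highest adjusted p 0.0411) and was 1.56 in kind A alone (adjusted p = 6.34e-06). In kind B alone it was 0.71 (adjusted p = 0.216), and with possible repeat libraries summed in all groups it was 0.96 (adjusted p = 0.066).

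Jun differed by less, at 30.9 to 37.6 CPM in GCERAdT and 26.6 to 30.5 CPM in GCERAd. The log2 fold change of 0.27 (95% interval 0.12 to 0.42, standard error 0.08, adjusted p = 0.0321) was lost without GCERAd 2 or 3 and without GCERAdT 1, 2 or 4, with adjusted p up to 0.0988. It was also lost under 7 of the other 11 alternatives, although the value stayed between 0.24 and 0.30. The adjusted p was 0.125 without a minimum, 0.0784 with filterByExpr, 0.0562 in kind A alone, 0.313 in kind B alone, 0.062 with possible repeat libraries summed, 0.0826 when GCERAdT 2 and 3 were summed too and 0.0964 with all 17 samples in 1 fit. With the replicate number as a block the values were 1.28 for Fosl2 (adjusted p = 0.00165) and 0.28 for Jun (adjusted p = 0.0198). The same 2 genes were called under the block, while the count of all genes called went from 2266 to 3770.

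The other 8 genes gave log2 fold changes from -1.58 for Egr2 (adjusted p = 0.267) and -0.70 for Egr1 (adjusted p = 0.339) to 0.33 for Fos (adjusted p = 0.788). The 4 GCERAdT samples lay at 6.72 to 11.7 CPM for Egr1, within the GCERAd range of 4.33 to 25.8. Among other immediate early transcription factors 8 of 18 were called higher and none lower, with Nfil3 (1.79), Myc (1.40), Atf3 (1.23) and Maff (1.20) the largest (adjusted p between 0.000743 and 0.0455). Feedback and effector genes were divided, with 3 of 24 called higher, led by Gadd45a (0.98) and Plk2 (0.92), and 4 lower, led by Sik1 (-0.79) and Dusp1 (-0.65), with adjusted p between 0.000752 and 0.00248. Upstream genes were called higher for 3 of 25, led by Elk3 (0.56) and Mrtfb (0.47), and lower for 2. Of 12 other bZIP factors 4 were called higher, among them Atf5 (2.60, adjusted p = 2.92e-08) and Atf4 itself (0.52, adjusted p = 0.0108). Endothelial markers were called higher for 5 of 6 and proximal tubule markers lower for 4 of 8. Tubule injury markers were called higher for 2 of 5, 1 of 4 podocyte markers was called higher, and 2 of 12 heat shock and handling genes and 1 of 3 adipocyte markers were called lower. The part of these in the changes of Fosl2 and Jun was not tested.

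**Figure D4:**
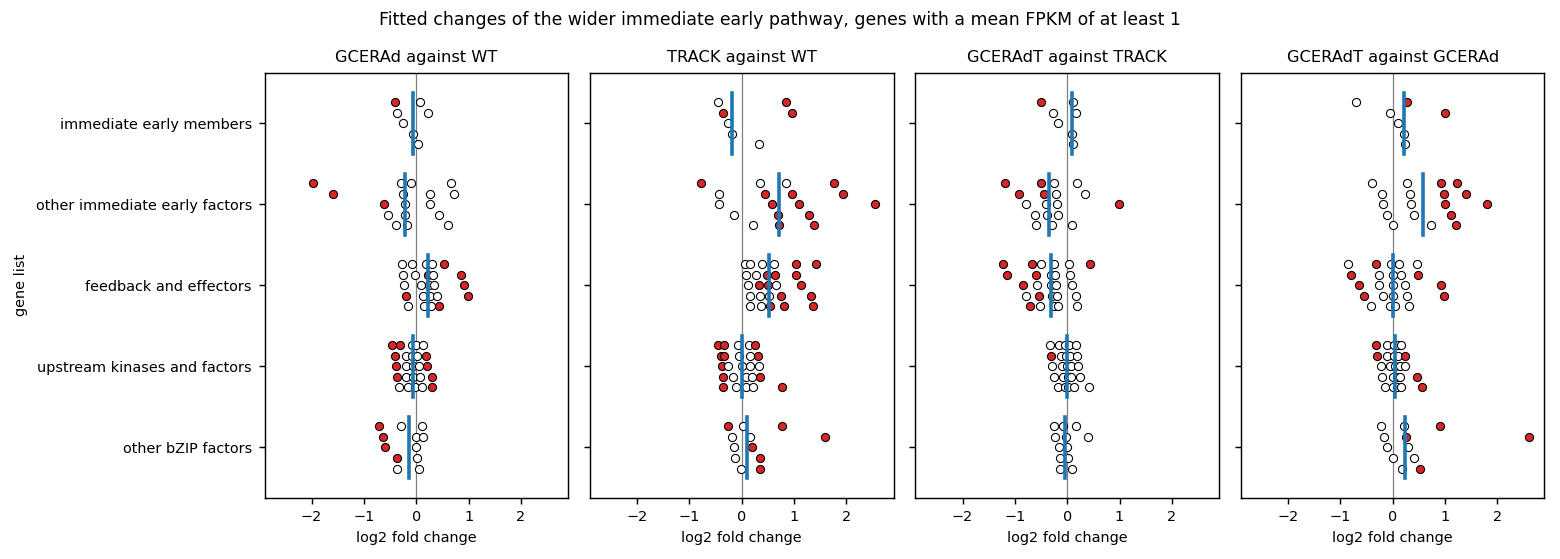
Fitted log2 fold changes (x axis) of the immediate early genes and of 4 lists of the wider pathway in 4 comparisons, for genes of at least 1 FPKM, 1 point per gene, filled at an adjusted p of at most 0.05, with the median as a blue line. Most filled points of the other immediate early factors lie above 0 in TRACK against WT (11 higher, 1 lower) and in GCERAdT against GCERAd (8 higher).

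The last test asked whether the difference between GCERAdT and TRACK departs from that between GCERAd and WT, in a fit of all 17 samples. Jun was called, with a difference of log2 fold changes of -0.57 (95% interval -0.91 to -0.22, standard error 0.18, adjusted p = 0.0268), against 25.1% of 12208 genes. It was lost without TRACK 1 (-0.48, adjusted p = 0.0876) and without GCERAdT 3 (-0.53, adjusted p = 0.0533), as well as in kind B alone (-0.79, adjusted p = 0.0694) and when GCERAdT 2 and 3, the most alike libraries, were summed with the other possible repeats (-0.56, adjusted p = 0.0582). Since WT alone lacked Y-linked transcripts, this difference and sex cannot be told apart either. Fosl2 gave 0.06 (95% interval -0.53 to 0.65, adjusted p = 0.893). Egr2 (-3.58, adjusted p = 0.0576), Ier2 (0.52, adjusted p = 0.0677) and Jund (0.48, adjusted p = 0.136) did not pass the threshold, although Egr2 did with DESeq2 and with filterByExpr. Of 26 feedback and effector genes 9 were called lower and 1 higher, with Ccn2 (-1.58), Dusp4 (-1.34), Errfi1 (-1.17) and Sik1 (-1.12) the largest (adjusted p between 0.000358 and 0.00124). Of 18 other immediate early transcription factors 4 were called higher and 3 lower.

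By group means the order of Fosl2 was GCERAdT (40.4 ± 3.54 CPM), TRACK (38.6 ± 4.16), GCERAd (20.4 ± 8.24) and WT (19.8 ± 3.13). The first pair and the last pair lay within each other's spread. The order of Jun was TRACK (49.3 ± 5.44), GCERAdT (34.3 ± 3.02), GCERAd (28.8 ± 1.74) and WT (27.2 ± 5.55), where the last pair lay within the spread. Jund ran from WT (126 ± 20.6) over GCERAdT (105 ± 13) to GCERAd (98.6 ± 22.9) and TRACK (98.6 ± 2.6), all neighbours lying within the spread. Egr1 was highest on average in GCERAd (14 ± 9.35) and lowest in GCERAdT (8.53 ± 2.34), and no 2 groups were separate.

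The genes whose log2 CPM followed Fos most closely over the 17 samples, among 12208 genes, were Sec61b (Pearson's r of 0.85), Mrpl33 (0.822), Cxcl16 (0.82), Snrpd2 (0.814) and Gm11752 (0.811). The mean of the 10 genes, each centred, was most like Sprr1a (0.78), Krt19 (0.767), S100a6 (0.767), Gm43305 (0.722) and Cd68 (0.696). These values are descriptions over samples that share groups, library kinds and, for some, possibly a mouse.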

How the data were processed

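Stranded mRNA libraries were made from kidney cortices. The deposited file holds raw read counts for each gene and sample, which the authors did not normalize. Per the labels the tools were bcl2fastq 2.20, cutadapt, STAR and HTSeq, with the build GRCm38. The annotation, the strand setting and the treatment of reads with several matches are not given in the sources used here, so overlapping genes carry some uncertainty. Groups came from the labels.

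Tests used edgeR 4.0.16 under R 4.3.3 (TMM scaling, quasi-likelihood test, Benjamini-Hochberg adjustment over all genes tested). Each pair of groups was fitted on its own and the difference of contrasts in all 17 samples. Genes were tested at a mean FPKM of at least 1 in a group, with merged exon lengths from GENCODE M21, in which 360 genes had none; 663 genes had no name. CPM used TMM scaling over 17 samples. Intervals are 1.96 standard errors. An adjusted p of at most 0.05 was called. Intervals and the limit of 3 counts for a zero cover counting and sample spread only.

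The 10 genes and the gene lists were chosen with earlier results of these data known. Named from each list were the called genes with the 4 largest changes; marker lists were described by counts and sums. Likeness used log2(CPM + 0.5). The fits were tested on simulated data. The simulated samples were drawn independently, without a difference of library kind and without repeat libraries. With 200 genes changed 2-fold, 89.5% were called for GCERAd against WT (11581 genes, 3 unchanged genes called), 83% for TRACK against WT (11967 genes, 10), 84% for GCERAdT against TRACK (11928 genes, 9), 84% for GCERAdT against GCERAd (11816 genes, 9) and 71.5% for the difference of contrasts (12208 genes, 7).

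Same-numbered samples were checked for pairing by the correlation of their deviations from the group means. It was over 0.1 for all 4 numbers in GCERAdT against GCERAd (0.383 to 0.542), where library kind runs in the same order, and not in the other comparisons (-0.59 to 0.0475). Alternatives were DESeq2 1.42.0, RLE scaling, no minimum, filterByExpr, the block, library kind, summed possible repeat libraries, all samples in 1 fit, and each sample left out; summing GCERAdT 2 and 3 was added after seeing the data. Whether the samples came from separate mice beyond the labels' numbering is unclear, so p-values may cover technical spread.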

Additional observations from a re-analysis of the deposited data

Results flagged for a closer look

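Junb in GCERAd 2 stood apart from its group: its distance to the nearest other GCERAd sample was 0.825 of the whole range of the group, above the limit of 0.71 for 5 samples. Junb was at 21.6 CPM there and at 13 to 14.5 CPM in the other 4 GCERAd samples. This was 1 of 30 groups of values tested in this way, and chance gives about 1 in 20.

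Jun differed between the contrasts GCERAdT against TRACK (-0.50) and GCERAd against WT (0.07), by -0.57 on the log2 scale (adjusted p = 0.0268, edgeR). The call was lost without TRACK 1 (adjusted p = 0.0876), without GCERAdT 3 (0.0533), in kind B alone (0.0694) and when GCERAdT 2 and 3 were summed with the other possible repeat libraries (0.0582). The 4 samples labelled GCERAdT lay below all 3 TRACK samples, while GCERAd and WT overlapped.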

How the results depend on the processing

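Of 990 values of single genes under the alternatives, 871 kept their direction and their side of the threshold, 52 lost the threshold, 13 gained it, and 52 that were never called changed sign. Both reversals were of Jund in TRACK against WT, at 0.11 with library kind as a covariate and 0.11 among kind B libraries. Fosl2 and Jun in TRACK against WT were called under every alternative run (highest adjusted p 0.0192 and 0.022, edgeR and DESeq2).

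The number of the 10 genes called for GCERAd against WT was 2, and it was 1 with library kind as a covariate, 1 in kind A alone, 0 in kind B alone, 1 with possible repeat libraries summed, and 0 to 2 with each sample left out. For TRACK against WT it was 3, and 2 with library kind as a covariate, in kind B alone and with all 17 samples in 1 fit (Jund lost in each), and 2 to 3 with each sample left out. Without WT 1 the 3 were Fosl2, Jun and Junb. For GCERAdT against TRACK it was 1, and 0 in kind B alone and 0 to 1 with each sample left out. For GCERAdT against GCERAd it was 2, and 1 without a minimum, 1 with filterByExpr, 0 in kind B alone, 1 with possible repeat libraries summed, 0 when GCERAdT 2 and 3 were summed too, 1 with all 17 samples in 1 fit, and 1 to 2 with each sample left out. In kind A alone it was also 2, but Jun was lost (adjusted p = 0.0562) and Egr1 was gained, lower in GCERAdT (adjusted p = 0.041, edgeR). For the difference of contrasts it was 1, and 2 with DESeq2, 2 with filterByExpr, 0 in kind B alone, 0 when GCERAdT 2 and 3 were summed too, and 0 to 2 with each sample left out. Kind B alone leaves 1 WT sample, assumed to vary like the others; the cause of the other changes was not tested.

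With the replicate block the counts were 1 for GCERAd against WT (Egr2 lost), 3 for TRACK against WT (Jund lost, at adjusted p = 0.196, and Egr1 gained, at 0.0426), 1 for GCERAdT against TRACK, 2 for GCERAdT against GCERAd and 1 for the difference of contrasts. Same-numbered samples were alike by the check only in GCERAdT against GCERAd. Library kind runs in the same order there, so the check cannot tell pairing from library kind. In every comparison the samples are known to share a number only. Genes called overall went from 846 to 1562 with DESeq2 for GCERAdT against TRACK and to 462 with library kind, 498 with repeat libraries summed, 221 in kind B alone and 379 to 1424 with each sample left out, from 3198 to 98 in kind B alone and to 2106 under the block for GCERAd against WT, from 5458 to 3431 under the block, 2776 with library kind and 1475 in kind B for TRACK against WT, from 2266 to 349 in kind B, 1168 when GCERAdT 2 and 3 were summed too and 1427 to 2336 with each sample left out for GCERAdT against GCERAd, and from 3070 to 452 in kind B for the difference of contrasts.

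Fosb and Egr2 held 0 to 39 counts per sample and Fos 9 to 155, so relative counting error is largest for them.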
